A study of Drosophila melanogaster with 9 samples.

Results

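Border cells are a small group of follicle cells that leave the epithelium of the Drosophila egg chamber and move between the nurse cells to the oocyte. Their fate is set by JAK-STAT signalling: polar cells at the tip of the chamber secrete Unpaired cytokines, the receptor Dome passes the signal to the kinase Hop, and Hop activates the transcription factor Stat92E. Stat92E in turn acts through the transcription factor Slbo, while ecdysone and its coactivator Tai act on the timing of the movement, receptor tyrosine kinases guide it, and E-cadherin provides the grip.

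Members of this system, 9 genes in all, were followed by symbol in every gene table, out of 15602 genes listed. They are the receptor gene dome, the JAK gene hop, Stat92E, the STAT target and inhibitor Socs36E, the STAT antagonist apt, slbo, tai, the guidance receptor gene Pvr, and shg, which encodes E-cadherin. All 9 passed the filter of at least 1 FPKM (sequenced fragments normalised for transcript length and library size) in at least 3 libraries, which left 8340 genes tested. All 9 had the status OK in every library.

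Poly(A) RNA was sequenced from hand-dissected ovarian follicles of adult females, with 100 follicles in a sample and 3 samples in each of 3 groups. These were EcRts stage 10 follicles, from females with a temperature-sensitive mutation of EcR, stage 10 follicles of the wild type (WT) and stage 8 follicles of the wild type. EcR encodes the ecdysone receptor. From 2 days after eclosion the EcR mutants were held at a restrictive temperature, and the wild type was kept at 25 °C, so genotype and temperature differ together and their effects cannot be told apart. The labels give all 9 samples the strain Oregon R and an age of 6 to 14 days, whereas the growth protocol starts at 4 days. The sources used here give neither the EcR alleles nor the restrictive temperature, and do not say whether samples of a group are separate collections of animals, so the p-values measure only the spread between these samples. Border cells are few among the cells of a follicle, and in bulk RNA fewer cells of a type and less RNA per cell cannot be told apart.

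The deposited confidence limits imply 27.2 to 33.3 M fragments per library in EcRts stage 10, against 17.5 to 21.3 M in WT stage 10 and 18.6 to 21.7 M in WT stage 8. Genes off the assembled chromosome arms took 31.5% to 34.2% of the summed FPKM in EcRts stage 10, against 15.4% to 16.8% in WT stage 10 and 22.5% to 25.9% in WT stage 8. Summed follicle cell and germline markers were abundant in all libraries, at 8205 FPKM or more for 5 follicle cell genes and 1085 FPKM or more for 5 germline genes. The follicle cell sum was almost all Yp1, Yp2 and Yp3. Of its other genes, tj averaged 42.2 FPKM in WT stage 10 and 74.4 FPKM in WT stage 8, and br 10.0 FPKM and 13.4 FPKM. Muscle sheath markers were higher in EcRts stage 10, where 9 genes summed to 11.0 to 14.6 FPKM, against 5.11 to 7.96 FPKM in WT stage 10 and 2.94 to 6.43 FPKM in WT stage 8. Of 5 tested muscle genes, 3 rose in EcRts against WT stage 10, where 9.93% of all tested genes rose. The filter favours rises among these low genes, so the 2 shares cannot be compared. Mlc1 reached 1 FPKM in EcRts libraries only. Mlc2 had 0.612 to 0.793 FPKM in WT stage 10 and was above 1 FPKM in every EcRts library. Among the muscle genes below the filter, Mhc and bt were higher in EcRts than in WT stage 10 without overlap. The gene sls was lower, at 0.0999 FPKM against 0.182 FPKM, and Mlp84B overlapped. Among 8 hemocyte markers, srp and crq were tested, He was at 0 in every library, and the 6 genes other than srp and crq reached at most 0.248 FPKM. The 8 hemocyte genes summed to 71.9 to 81.8 FPKM in EcRts stage 10, 111 to 117 FPKM in WT stage 10 and 56.6 to 63.3 FPKM in WT stage 8, almost all of it crq and srp. Unlike the sum, Pxn was higher in EcRts than in WT stage 10 without overlap, averaging 0.223 FPKM against 0.0654 FPKM. Hml, NimC1, eater and Sr-CI overlapped between the stage 10 groups. The germarium genes bam and bgcn summed to 12.5 to 17.1 FPKM in EcRts stage 10, 14.0 to 16.6 FPKM in WT stage 10 and 4.71 to 5.36 FPKM in WT stage 8. Almost all of this was bam. The gene bgcn went the other way between the wild-type stages. It averaged 0.204 FPKM in EcRts stage 10, 0.0870 FPKM in WT stage 10 and 0.217 FPKM in WT stage 8. The part of depth and of RNA from other cell types in the results was not tested. All genes off the assembled arms are left out of the sum used in the scaling to those arms. Which kinds of genes make up their share was not broken down.

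The genes spanned a wide range of levels. Per kilobase, Stat92E was highest of the 9 in each group, followed by apt, and slbo was lowest. In EcRts stage 10 and in WT stage 8 the order of mean FPKM was Stat92E, apt, dome, shg, hop, tai, Pvr, Socs36E and slbo. In WT stage 10, shg stood above dome, but the ranges of these neighbours overlapped. Pvr and Socs36E overlapped in WT stage 8, and no other neighbours in these orders did.

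**Figure D1:**
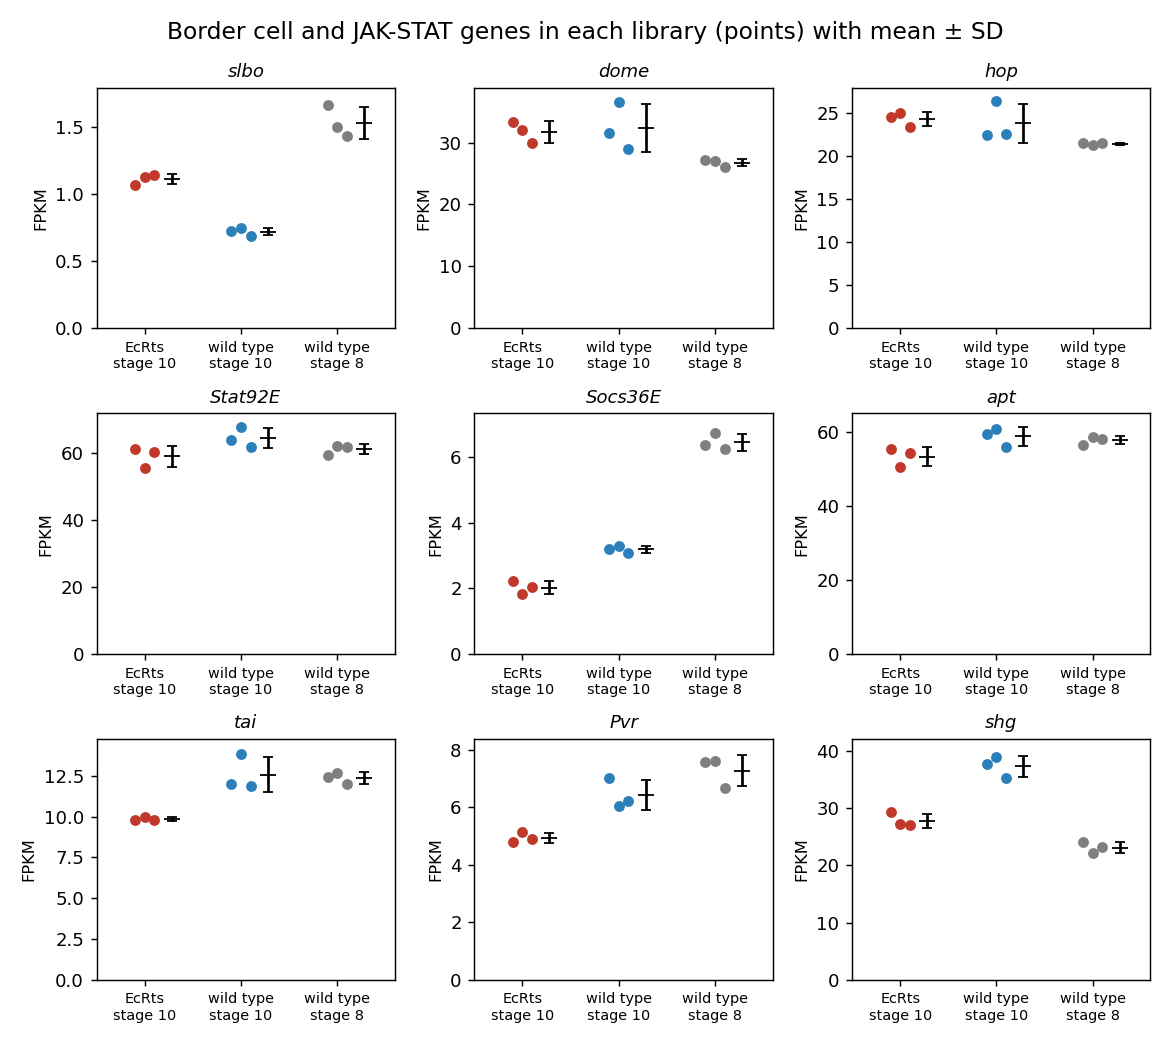
FPKM of each gene (vertical axes, from 0) in the 3 libraries of EcRts stage 10, wild-type stage 10 and wild-type stage 8. Points are libraries and bars are the mean ± SD. Socs36E is lowest in EcRts stage 10 and highest in wild-type stage 8, shg is highest in wild-type stage 10 and slbo is lowest there.

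The cytokine genes that start the pathway were close to the limit of detection in whole follicles and did not pass the filter. The Unpaired gene upd1 had 0.262, 0.322 and 0.273 FPKM in EcRts stage 10, 0.478, 0.311 and 0.317 FPKM in WT stage 10, and 0.717, 0.617 and 0.720 FPKM in WT stage 8. Its libraries overlapped between the stage 10 groups, and all 6 stage 10 libraries lay below those of WT stage 8. In a fit of all genes without the filter, upd1 fell by 0.30 on the log2(FPKM + 1) scale in WT stage 10 against WT stage 8 (adjusted p = 0.00361) and did not pass in EcRts against WT stage 10 (adjusted p = 0.326). With the polar cell markers Fas3 and neur, upd1 summed to 15.4 to 18.2 FPKM in EcRts stage 10, 23.9 to 27.9 FPKM in WT stage 10 and 12.9 to 14.1 FPKM in WT stage 8, with Fas3 the largest of the 3. The related cytokine gene upd3 averaged 0.155 FPKM in EcRts stage 10, 0.203 FPKM in WT stage 10 and 0.353 FPKM in WT stage 8. The remaining cytokine gene, upd2, reached at most 0.0462 FPKM and was listed at 0 in the 3 WT stage 8 libraries. The receptor-like gene et, a negative regulator of the pathway, averaged 0.0434 FPKM in EcRts stage 10, 0.145 FPKM in WT stage 10 and 0.123 FPKM in WT stage 8.

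The receptor gene dome (FBgn0043903, X:19570090-19577549 in dm3, minus strand) was slightly higher in both stage 10 groups than at stage 8. It had 33.4, 32.0 and 29.9 FPKM in EcRts stage 10, 31.5, 36.5 and 28.9 FPKM in WT stage 10, and 27.2, 26.9 and 26.1 FPKM in WT stage 8. The stage 10 groups overlapped, and every stage 10 library was above every WT stage 8 library. The difference between WT stage 10 and WT stage 8 was 0.26 (SE 0.0815, limma adjusted p = 0.0214) on the log2(FPKM + 1) scale, where the median of all tested genes was 0.20. With median-of-ratios scaling, which centres most genes at no change, the dome difference was 0.05 (adjusted p = 0.554), and with quantile normalization it was 0.019 (adjusted p = 0.836). The call was also lost without WT stage 8 replicate 3 (adjusted p = 0.0622). Between EcRts and WT stage 10 the difference was -0.02 (adjusted p = 0.859), positive under 3 of the scalings and without EcRts replicate 3 or WT stage 10 replicate 2.

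The Janus kinase gene hop (FBgn0004864, X:11254932-11262130, minus strand) had 24.5, 24.9 and 23.4 FPKM in EcRts stage 10, 22.5, 26.3 and 22.5 FPKM in WT stage 10, and 21.4, 21.3 and 21.5 FPKM in WT stage 8. The stage 10 groups overlapped and both lay above stage 8. No call was made for hop in WT stage 10 against WT stage 8 (difference 0.14, adjusted p = 0.0838) or in EcRts against WT stage 10 (difference 0.03, adjusted p = 0.694). The gene shares 31 bases with Pa1, which had 13.8 to 34.5 FPKM, and the library kit does not mark strand, so reads from those bases are uncertain.

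The transcription factor gene Stat92E (FBgn0016917, 3R:16361405-16378034, minus strand) had 61.3, 55.5 and 60.4 FPKM in EcRts stage 10. It had 64.1, 67.9 and 61.8 FPKM in WT stage 10, and 59.6, 62.3 and 61.8 FPKM in WT stage 8. The 2 wild-type groups overlapped, and the EcRts libraries lay below all WT stage 10 libraries by a narrow gap. Neither the stage difference of 0.07 (adjusted p = 0.231) nor the EcRts difference against WT stage 10 of -0.13 (adjusted p = 0.0799) passed, and both change sign under some scalings.

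The clearest change in the pathway was in Socs36E (FBgn0041184, 2L:18138675-18152410, minus strand), a gene that Stat92E activates and whose product restrains the pathway. It had 2.21, 1.82 and 2.05 FPKM in EcRts stage 10, 3.20, 3.31 and 3.08 FPKM in WT stage 10, and 6.39, 6.75 and 6.25 FPKM in WT stage 8. No group overlapped another, with EcRts stage 10 lowest and WT stage 8 highest. The mean in WT stage 10 was 0.494 times that in WT stage 8, and the mean in EcRts stage 10 was 0.634 times that in WT stage 10. Socs36E fell by 0.83 in WT stage 10 against WT stage 8 (SE 0.0794, limma adjusted p = 4.57e-05). It fell by 0.47 in EcRts against WT stage 10 (adjusted p = 0.00254) and by 1.30 in EcRts against WT stage 8 (adjusted p = 1.63e-05). Each of these calls was made under all 20 alternative settings tried, which include 4 other scalings and the removal of each library.

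Set against Stat92E within each library, which removes any scaling factor common to the library, Socs36E stood at 3.42% ± 0.169 of the Stat92E FPKM in EcRts stage 10, 4.95% ± 0.0674 in WT stage 10 and 10.6% ± 0.385 in WT stage 8 (SD, n = 3 each). The 3 groups did not overlap. Each exact two-sided permutation test gave p = 0.1, the smallest value that 3 against 3 libraries allow, and 0.2 after Benjamini-Hochberg adjustment over the 12 ratio tests. The pairs of genes for these ratios were chosen with the values known.

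The STAT antagonist gene apt (FBgn0015903, 2R:19452377-19487049, plus strand) encodes a nuclear protein that limits which follicle cells become motile. It had 55.3, 50.4 and 54.3 FPKM in EcRts stage 10, 59.6, 60.9 and 56.0 FPKM in WT stage 10, and 56.5, 58.6 and 58.2 FPKM in WT stage 8. The wild-type stages overlapped (difference 0.02, adjusted p = 0.678), and the EcRts libraries lay below both. The EcRts difference against WT stage 10 was -0.14 (SE 0.0485, limma adjusted p = 0.0485), just inside the threshold of 0.05, and that call was made under only 4 of 20 alternatives. It was lost, for example, without any 1 of the 3 EcRts libraries, and the difference was 0.01 under quantile normalization. The median tested gene differed by -0.12 in this comparison.

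The gene slbo (FBgn0005638, 2R:20219045-20221829, minus strand) encodes the C/EBP factor that border cells need to move. It had 1.07, 1.13 and 1.14 FPKM in EcRts stage 10, 0.726, 0.747 and 0.691 FPKM in WT stage 10, and 1.66, 1.50 and 1.43 FPKM in WT stage 8. The groups did not overlap, with WT stage 10 lowest, EcRts stage 10 between and WT stage 8 highest. The WT stage 10 mean of 0.721 ± 0.0279 FPKM was 0.471 times the WT stage 8 mean of 1.53 ± 0.118 FPKM (SD, n = 3 each). On the log2(FPKM + 1) scale, which compresses changes at this level, slbo fell by 0.56 (SE 0.105, limma adjusted p = 0.00177), a call made under all 19 alternatives in which slbo was tested. Every WT stage 10 library lay below the filter of 1 FPKM, so slbo was tested only through its EcRts and WT stage 8 libraries. For both comparisons with WT stage 10, the filter thus admitted slbo through the group where it was higher.

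In EcRts stage 10 the slbo mean of 1.11 ± 0.0402 FPKM was 1.54 times that of WT stage 10. The fitted difference of 0.30 (SE 0.105) did not pass after adjustment (adjusted p = 0.0513). It passed with scaling to the assembled chromosome arms (adjusted p = 0.0252), with median-of-ratios scaling (0.0288), without the filter (0.0134) and without the intensity trend (0.00216), and missed in the other 15 alternatives. The deposited limits imply from 40.0 to 48.5 fragments for slbo in a WT stage 10 library and from 98.0 to 128 in an EcRts library.

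The follicle cell factor gene tj had its means in the same order as slbo, with 56.5 ± 5.78 FPKM in EcRts stage 10, 42.2 ± 3.83 FPKM in WT stage 10 and 74.4 ± 1.26 FPKM in WT stage 8 (SD, n = 3 each). As a share of tj, slbo stood at 1.98% ± 0.146 in EcRts stage 10, 1.72% ± 0.200 in WT stage 10 and 2.06% ± 0.139 in WT stage 8. These ranges overlapped, with exact two-sided permutation p = 0.2 for EcRts against WT stage 10 and for WT stage 10 against WT stage 8. After Benjamini-Hochberg adjustment over the 12 ratio tests both were 0.24. With 3 libraries a group, such a test can reach no less than 0.1 before adjustment.

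Among 6293 tested genes with a mean of at least 5 FPKM, the profile of slbo over the 9 libraries was most like that of dlg1, a scaffold gene of epithelial polarity (Pearson r = 0.989 on the log2(FPKM + 1) scale). It was followed by pths (0.984), Pdcd4 (0.977), CG10565 (0.976) and CG32425 (0.974). Genes most like Socs36E were GrlHz (0.990), the mitochondrial dicarboxylate carrier gene Dic1 (0.986), the forkhead factor gene CHES-1-like (0.985), dob (0.984) and CG8036 (0.984). These correlations rank the whole table over 9 libraries in 3 groups and are given as a description.

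The ecdysone coactivator gene tai (FBgn0041092, 2L:9166778-9250211, plus strand) had 9.82, 9.99 and 9.77 FPKM in EcRts stage 10, 12.02, 13.8 and 11.9 FPKM in WT stage 10, and 12.4, 12.7 and 11.98 FPKM in WT stage 8. It shares 124 bases with aust, listed at up to 0.0673 FPKM, and 74 bases with tRNA:CR31885, listed at 0 to 55.3 FPKM. The wild-type stages overlapped (difference 0.02, adjusted p = 0.800), and all EcRts libraries lay below all wild-type libraries. The gene fell by 0.32 in EcRts against WT stage 10 (SE 0.0634, limma adjusted p = 0.00535) and by 0.30 against WT stage 8 (adjusted p = 0.00398). With scaling to the assembled chromosome arms these differences were -0.18 (adjusted p = 0.0658) and -0.16 (adjusted p = 0.0604), the only alternative of 20 that ended either call. The EcR gene itself averaged 20.6 ± 0.670 FPKM in EcRts stage 10, 21.0 ± 1.36 FPKM in WT stage 10 and 19.4 ± 0.446 FPKM in WT stage 8 and passed in no comparison. Its level does not check the mutant label, since a temperature-sensitive receptor can be transcribed as usual. The receptor's partner gene usp rose by 0.20 in EcRts against WT stage 10 (adjusted p = 0.0291), called under 14 of 20 alternatives, with differences down to 0.021 and adjusted p up to 0.778. It rose by 0.27 in WT stage 10 against WT stage 8 (adjusted p = 0.00463), called under 18 of 20 alternatives, with adjusted p up to 0.426. In EcRts against WT stage 8, usp rose by 0.47 (limma adjusted p = 0.000337), called under all 20 alternatives.

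The guidance receptor gene Pvr (FBgn0032006, 2L:8220980-8239878, minus strand) encodes the PDGF and VEGF receptor homologue that border cells use to find the oocyte. It had 4.80, 5.14 and 4.88 FPKM in EcRts stage 10, 7.03, 6.05 and 6.21 FPKM in WT stage 10, and 7.57, 7.60 and 6.65 FPKM in WT stage 8. The EcRts libraries lay below every wild-type library, and the wild-type stages overlapped (difference -0.16, adjusted p = 0.109). Pvr fell by 0.32 in EcRts against WT stage 10 (SE 0.0780, limma adjusted p = 0.0122), a call that ended with scaling to the assembled arms (-0.19, adjusted p = 0.0869) and under median-of-ratios scaling (-0.21, adjusted p = 0.0603). Against WT stage 8 it fell by 0.48 (adjusted p = 0.00106) under every alternative. Its ligand gene Pvf1, expressed in the oocyte, averaged 23.2 ± 2.44 FPKM in EcRts stage 10, 27.2 ± 2.06 FPKM in WT stage 10 and 29.9 ± 2.30 FPKM in WT stage 8, and passed in EcRts against WT stage 8 (difference -0.35, adjusted p = 0.0105). The ligand genes Pvf2 and Pvf3 averaged at most 0.0784 FPKM and 0.112 FPKM in a group.

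E-cadherin holds the border cell cluster together and gives it purchase on the nurse cells. Its gene shg (FBgn0003391, 2R:16938107-16944664, minus strand) had 29.2, 27.1 and 27.0 FPKM in EcRts stage 10, 37.8, 38.9 and 35.2 FPKM in WT stage 10, and 24.1, 22.1 and 23.1 FPKM in WT stage 8. The groups did not overlap, with WT stage 10 highest and EcRts stage 10 between it and WT stage 8. The WT stage 10 mean was 1.61 times the WT stage 8 mean, and the EcRts mean was 0.746 times the WT stage 10 mean. The gene rose by 0.67 in WT stage 10 against WT stage 8 (SE 0.0551, limma adjusted p = 2.35e-05) and fell by 0.41 in EcRts against WT stage 10 (adjusted p = 0.000941), in all 20 alternatives each. In EcRts against WT stage 8 it rose by 0.26 (adjusted p = 0.00414), and quantile normalization ended that call (adjusted p = 0.0888).

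Relative to arm, the beta-catenin gene whose product binds E-cadherin, shg stood at 21.8% ± 0.897 in EcRts stage 10, 28.5% ± 0.518 in WT stage 10 and 18.7% ± 0.189 in WT stage 8 (SD, n = 3 each), with no overlap. Each exact two-sided permutation test again gave the smallest possible value, p = 0.1, and 0.2 after Benjamini-Hochberg adjustment over the 12 ratio tests. The arm gene itself passed in no comparison, with 128 ± 2.30 FPKM in EcRts stage 10, 131 ± 4.31 FPKM in WT stage 10 and 123 ± 4.27 FPKM in WT stage 8. The ratio of Pvr to Pvf1 overlapped between the groups, at 21.4% ± 1.70 in EcRts stage 10, 23.8% ± 2.30 in WT stage 10 and 24.5% ± 3.31 in WT stage 8.

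**Figure D2:**
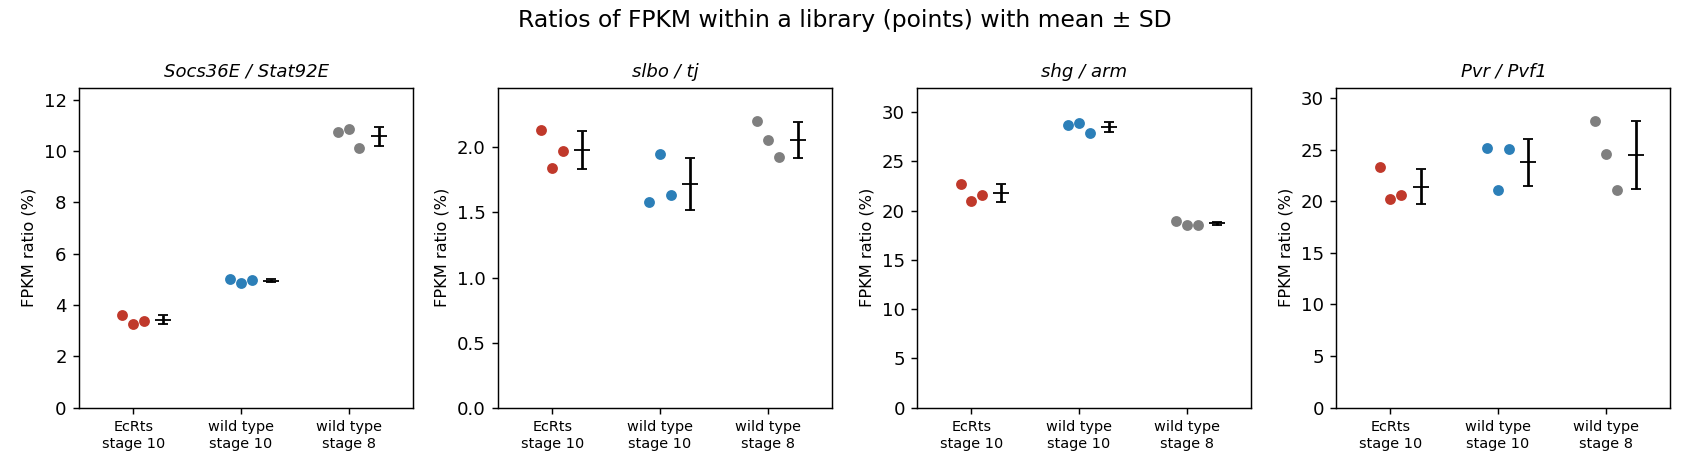
FPKM of a gene as a percentage of a partner's FPKM in the same library (vertical axes, from 0), for Socs36E over Stat92E, slbo over tj, shg over arm and Pvr over Pvf1. Points are libraries and bars the mean ± SD; the 3 groups are apart for Socs36E over Stat92E and shg over arm and overlap for the other ratios.

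Taking the 9 genes as a list, 2 rose (dome, shg) and 2 fell (slbo, Socs36E) in WT stage 10 against WT stage 8, with 5 not called. Of all tested genes 68.1% were called there, 49.2% higher and 18.9% lower, and the median difference was 0.02 for the 9 genes beside 0.20 for all tested genes. Groups did not overlap for 5 of the 9 genes, 3 higher and 2 lower, beside 71.3% of all tested genes, 51.4% higher and 20% lower. EcRts differed from WT stage 10 by 5 falls (Socs36E, apt, tai, Pvr, shg). None rose by the limma test, and 1 was higher at an unadjusted p under 0.05 (slbo). The background was 43.8% called, 9.93% higher and 33.9% lower, and the medians were -0.14 for the 9 genes and -0.12 for all tested genes. There 7 of the 9 did not overlap, 1 higher and 6 lower, beside 57.3% of all tested genes, 14.1% higher and 43.2% lower. The comparison of EcRts with WT stage 8 had 3 that rose (dome, hop, shg) and 3 that fell (Socs36E, tai, Pvr), beside 61.4% of all tested genes called, 39.8% higher and 21.5% lower, and 8 that did not overlap, 3 higher and 5 lower, beside 67.7%, 43.6% higher and 24.1% lower. Those rises were 0.24 for dome (adjusted p = 0.0334), 0.17 for hop (adjusted p = 0.0443) and 0.26 for shg, and only shg was called without WT stage 8 replicate 1, 2 or 3 or EcRts replicate 1 or 2. The comparisons share libraries, so their counts are not independent of one another.

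**Figure D3:**
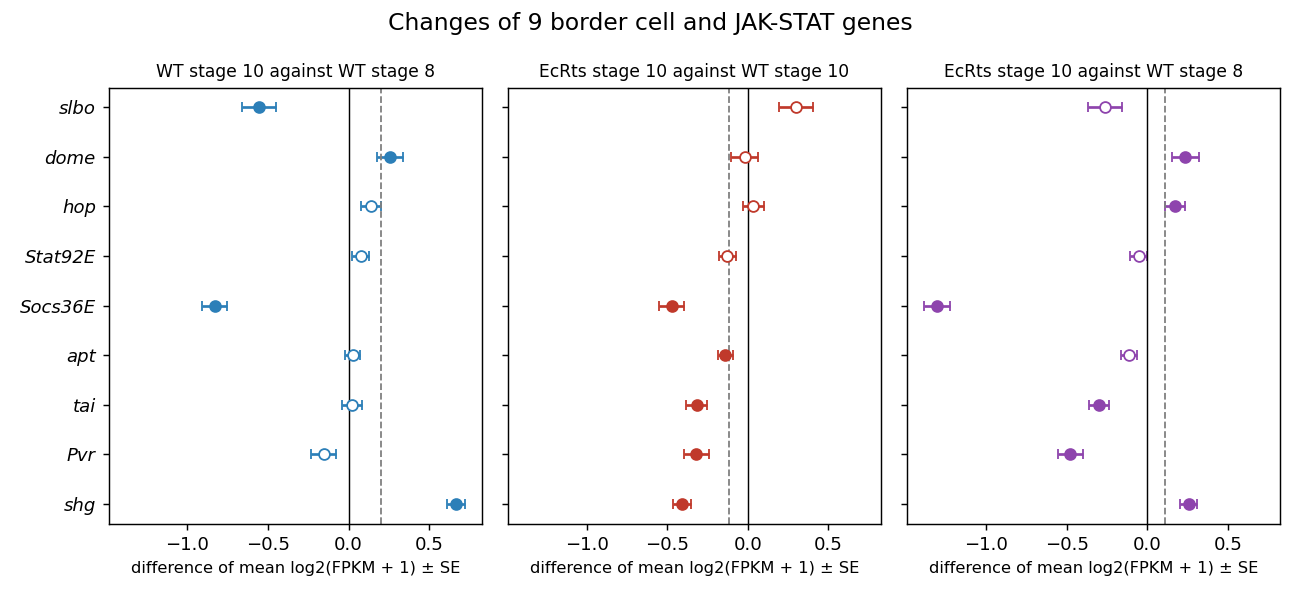
Difference of mean log2(FPKM + 1) ± SE for the 9 genes in the 3 comparisons named above the panels. Filled circles have an adjusted p under 0.05, open circles do not, and the dashed line is the median of all tested genes (0.20, -0.12 and 0.11).

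How libraries are scaled to one another sets the direction of the smaller changes. Of all calls in WT stage 10 against WT stage 8, 72.2% were higher with the deposited FPKM, 52.1% with quantile normalization, 51.8% with median-of-ratios scaling and 86.0% with scaling that leaves out eggshell and yolk genes. For EcRts against WT stage 10 the share was 22.7% as deposited, against 50.0%, 51.2% and 8.14% under those settings and 58.6% with scaling to the assembled arms. For EcRts against WT stage 8 it was 64.9%, against 53.9% with median-of-ratios, 52.8% with quantile and 77.9% with assembled-arm scaling. Socs36E and shg kept their calls in the first 2 of these comparisons under each scaling, as did slbo between the wild-type stages, whereas dome, hop, Stat92E, apt, tai and Pvr crossed 0 in at least 1 comparison.

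**Figure D4:**
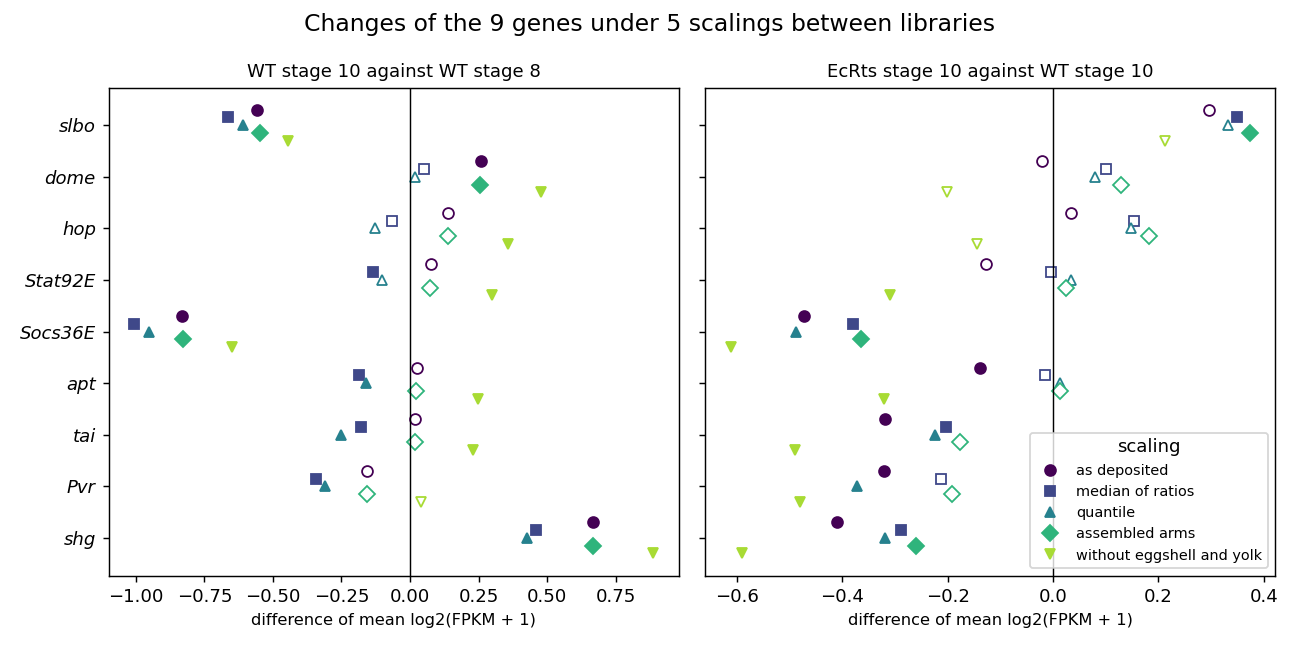
Difference of mean log2(FPKM + 1) of the 9 genes under 5 scalings between libraries, for 2 comparisons. Filled symbols have an adjusted p under 0.05; Socs36E and shg lie on 1 side of 0 under every scaling shown, while hop, Stat92E and apt cross it in both panels.

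Lists of related genes, 5 in number with 73 entries, show the setting of these changes. Of 9 tested among 16 other JAK-STAT genes, 4 rose, 3 fell and 2 were not called in WT stage 10 against WT stage 8, beside 49.2% of all tested genes higher and 18.9% lower. Ptp61F, whose phosphatase product opposes the JAK kinase, rose by 0.67, to 71.6 ± 7.12 FPKM in WT stage 10, against 44.3 ± 2.54 FPKM in WT stage 8 (adjusted p = 0.000124). The repressor gene ken fell by 0.60, to 26.6 ± 2.85 FPKM in WT stage 10, against 40.9 ± 5.33 FPKM in WT stage 8 (adjusted p = 0.000866). Against WT stage 10, no list member rose in EcRts, also at an unadjusted p under 0.05, and 2 fell, beside 33.9% of all tested genes. These were Socs16D, by 0.27 (adjusted p = 0.00379), and Stam, by 0.20 (adjusted p = 0.0337), a call made under 11 of 20 alternatives, with adjusted p up to 0.552. With assembled-arm scaling this list gave 2 higher and 0 lower in EcRts against WT stage 10, without eggshell and yolk genes 0 and 6, and median-of-ratios scaling gave 2 higher and 5 lower between the wild-type stages.

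Of 10 tested among 12 regulators of slbo and of border cell fate, 2 rose and 2 fell in WT stage 10 against WT stage 8. Of all tested genes 68.1% were called there, 49.2% higher and 18.9% lower. In EcRts against WT stage 10, 2 rose and 2 fell, beside 43.8% of all tested genes called, 9.93% higher and 33.9% lower. Under median-of-ratios scaling these counts were 0 and 4, and 4 and 1, and without eggshell and yolk genes 7 and 1, and 0 and 5. The follicle cell fate gene eya fell by 0.98, to 5.61 ± 0.466 FPKM in WT stage 10, against 12.1 ± 1.69 FPKM in WT stage 8 (adjusted p = 5.36e-05). The zinc finger gene jing fell by 0.37 in WT stage 10 against WT stage 8 (adjusted p = 0.00514). In EcRts against WT stage 10, jing rose by 0.25 (limma adjusted p = 0.0463), although the libraries overlapped. That call was made under 8 of 20 alternatives, with adjusted p up to 0.452. Egfr, which guides border cells together with Pvr, fell by 0.39, to 9.60 ± 0.133 FPKM in EcRts stage 10, against 12.9 ± 0.930 FPKM in WT stage 10 (adjusted p = 0.00628), and bun fell by 0.27 (adjusted p = 0.0293), called under 12 of 20 alternatives. The ecdysone-timing gene ab did not pass the filter, with 0.0995 FPKM in EcRts stage 10, 0.158 FPKM in WT stage 10 and 0.464 FPKM in WT stage 8. The gene trbl, whose product promotes turnover of Slbo protein, passed in no comparison and averaged 26.5 ± 0.593 FPKM in EcRts stage 10, 27.3 ± 1.48 FPKM in WT stage 10 and 26.0 ± 0.667 FPKM in WT stage 8.

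Of 16 tested among 19 guidance genes, 8 rose and 2 fell in WT stage 10 against WT stage 8, close to the 49.2% higher and 18.9% lower of all tested genes. For EcRts against WT stage 10, 7 fell and none rose by the limma test, with 1 higher and 9 lower at an unadjusted p under 0.05, beside 9.93% higher and 33.9% lower of all tested genes. Both depend on scaling, with 3 higher and 4 lower between the wild-type stages and 4 higher and 4 lower in EcRts under median-of-ratios, and 12 and 1, and 0 and 11, when eggshell and yolk genes are left out of the scaling. Ced-12, which encodes the ELMO part of the exchange factor for Rac, rose by 0.56 in WT stage 10 against WT stage 8 (adjusted p = 0.000480). It averaged 9.60 ± 0.877 FPKM in EcRts stage 10, against 17.3 ± 1.49 FPKM in WT stage 10, a fall of 0.79 (adjusted p = 0.000396). Rac2 fell by 0.50, to 26.8 ± 2.08 FPKM in EcRts stage 10, against 38.4 ± 2.21 FPKM in WT stage 10 (adjusted p = 0.00126). The germline ligand gene grk fell by 0.99, to 11.7 ± 1.06 FPKM in WT stage 10, against 24.1 ± 1.03 FPKM in WT stage 8 (adjusted p = 1.56e-05). Also in EcRts against WT stage 8, grk fell by 0.85 (adjusted p = 6.09e-05) and the Rab5 exchange factor gene spri rose by 0.49 (adjusted p = 0.00426).

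Adhesion and polarity genes held the largest change among the 5 lists in each comparison, by absolute log2 difference. In EcRts against WT stage 8 that change was in CadN, a gene of low level, with means of 0.777 FPKM and 2.83 FPKM. Its EcRts libraries all lay below 1 FPKM, so CadN passed the filter only through wild-type libraries, where it was higher. Of 12 tested among 13, 7 rose and 3 fell in WT stage 10 against WT stage 8, and 1 rose and 5 fell in EcRts against WT stage 10. These shares lie near those of all tested genes, 49.2% higher and 18.9% lower between the wild-type stages and 9.93% higher and 33.9% lower in EcRts. Median-of-ratios scaling gave 3 and 5, and 2 and 3, and scaling without eggshell and yolk genes 9 and 2, and 0 and 11. The catenin gene p120ctn averaged 65.7 ± 5.48 FPKM in EcRts stage 10, 102 ± 7.59 FPKM in WT stage 10 and 47.2 ± 1.94 FPKM in WT stage 8. It rose by 1.09 between the wild-type stages (adjusted p = 1.00e-05) and fell by 0.62 in EcRts against WT stage 10 (adjusted p = 0.000584). The other catenin gene alpha-Cat likewise rose by 0.79 (adjusted p = 1.12e-05) and fell by 0.34 (adjusted p = 0.00230) in these comparisons, with EcRts between the wild-type stages as for shg. The polarity gene l(2)gl averaged 29.5 ± 3.99 FPKM in EcRts stage 10, 65.3 ± 2.40 FPKM in WT stage 10 and 40.9 ± 2.29 FPKM in WT stage 8, and fell by 1.13 in EcRts against WT stage 10 (adjusted p = 0.000136). The single member that rose in EcRts against WT stage 10 was dlg1, with 31.2 ± 1.26 FPKM in EcRts stage 10, 25.3 ± 0.662 FPKM in WT stage 10 and 36.7 ± 0.204 FPKM in WT stage 8 (difference 0.29, adjusted p = 0.00126). It was singled out after its values were seen.

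Of 13 motility genes, all tested, 8 rose in WT stage 10 against WT stage 8 and none fell, also at an unadjusted p under 0.05, by the limma test, beside 49.2% of all tested genes higher and 18.9% lower. Median-of-ratios scaling gave 7 higher and 4 lower. Against WT stage 10, 9 of 13 fell in EcRts and none rose, again also at an unadjusted p under 0.05. The list median was -0.19, beside -0.12 for all tested genes, of which 33.9% were called lower. Under median-of-ratios scaling 3 motility genes were called lower, with assembled-arm scaling 1, and with scaling that leaves out eggshell and yolk genes all 13. Under quantile normalization 3 were higher and 3 lower. The myosin light chain gene sqh averaged 123 ± 8.26 FPKM in EcRts stage 10, 151 ± 2.78 FPKM in WT stage 10 and 93.5 ± 6.81 FPKM in WT stage 8, a rise of 0.68 between the wild-type stages (adjusted p = 4.01e-05). The heavy chain gene zip rose by 0.60 between the wild-type stages (adjusted p = 0.000142) and fell by 0.41 in EcRts against WT stage 10 (adjusted p = 0.00293). The talin gene rhea fell by 0.30 in EcRts against WT stage 10 (adjusted p = 0.00546). The fascin gene sn rose by 0.39 in EcRts against WT stage 8 (adjusted p = 0.000156).

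**Figure D5:**
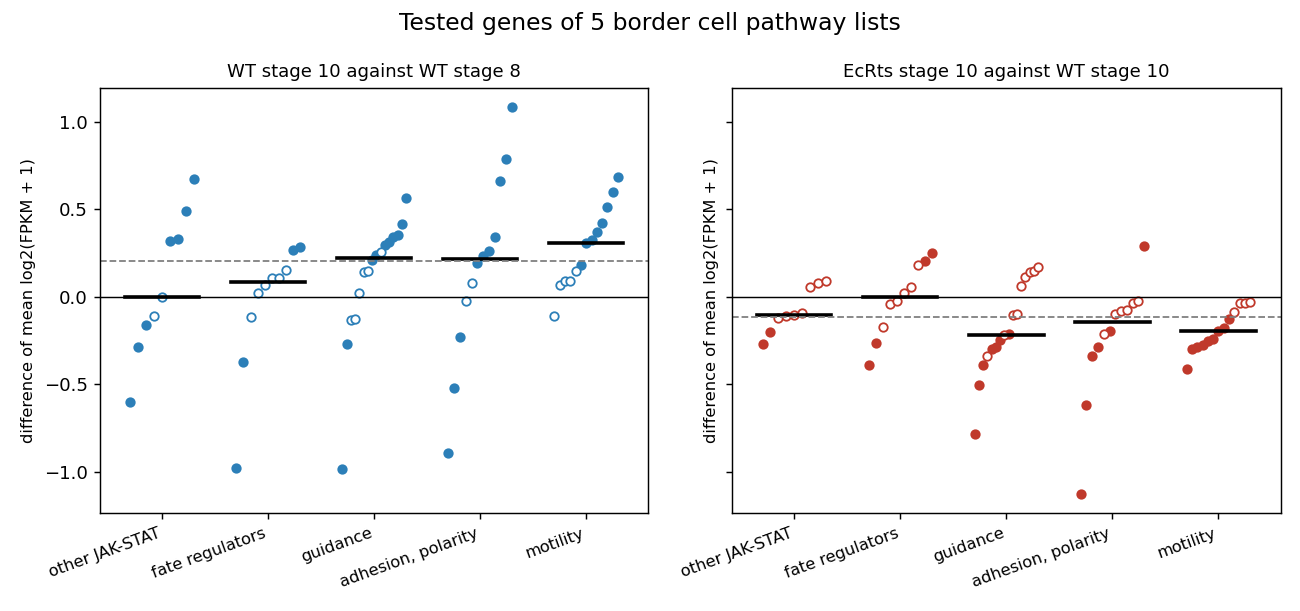
Difference of mean log2(FPKM + 1) for each tested gene of the 5 lists, in WT stage 10 against WT stage 8 and in EcRts stage 10 against WT stage 10. Filled points have an adjusted p under 0.05, black bars are list medians and the dashed line is the median of all tested genes; the motility medians are 0.31 and -0.19.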

How the data were processed

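Gene expression was measured by poly(A) RNA sequencing in 9 libraries, 3 per group, made with the TruSeq v2 kit per the labels' protocols. The values the authors deposited are gene-level FPKM with confidence limits and a status per gene; no read counts were used. Listed in the submitters' processing notes are Cufflinks 2.02, TopHat2 2.0.7, Bowtie2 2.0.6, CASAVA 1.8.2 and, as build, dm3, in which positions are given from 1. The annotation release is not given in the sources used here.

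A set of 21 genes whose estimate had failed and was listed at 0 in some library was left out. The 8340 genes reaching 1 FPKM in 3 or more libraries were fitted as log2(FPKM + 1) with a mean per group and an intensity trend in limma 3.58.1 under R 4.3.3, and p-values were adjusted by Benjamini-Hochberg over all of them within each comparison. Genes rose or fell when the adjusted p was under 0.05. FPKM ratios within a library were compared by exact two-sided permutation tests in scipy 1.17.1, 12 in all. Fragments were implied from the distance of the upper limit, taken as 2 SD of a count; such limits cover counting error only. The fit was also run on simulated data with independent noise and no scaling difference between libraries. That simulation cannot show how scaling affects the calls.

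The members and gene lists were chosen with earlier results of these data known. Named list genes are the 2 with the largest called change per list and comparison with at least 5 FPKM in the higher group, plus direct partners of the 9 genes. Symbols were matched through gene identifiers to a current annotation (upd1 is listed as os). Alternatives covered scaling, pseudocount, filter, variance trend, groups fitted, replicate block and each library left out.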

Additional observations from a re-analysis of the deposited data

How the results depend on the processing

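The 9 genes in 3 comparisons gave 27 results, each under up to 20 alternatives. Direction and side of the threshold held in 455 cases, a call was lost in 39, gained in 17, and the sign changed in 26. Sign changes in WT stage 10 against WT stage 8 were hop -0.066 (median-of-ratios) and -0.13 (quantile), Stat92E -0.14 and -0.10, apt -0.19 and -0.16, tai -0.18 and -0.25 under the same settings, and Pvr 0.042 without eggshell and yolk genes. With 1 library left out apt ranged from -0.00080 to 0.059 and tai from -0.046 to 0.057, negative without WT stage 10 replicate 2 and, for tai at -0.00044, without WT stage 8 replicate 3. In EcRts against WT stage 10, dome was 0.10 (median-of-ratios), 0.079 (quantile), 0.13 (assembled arms) and, with 1 library left out, -0.095 to 0.068, positive without WT stage 10 replicate 2 or EcRts replicate 3. There hop was -0.14 without eggshell and yolk genes, and -0.0037 to 0.11 with 1 library left out, negative without WT stage 10 replicate 1 or 3 (-0.0028), while Stat92E was 0.033 (quantile) and 0.025 (assembled arms) and apt 0.014 and 0.013. In EcRts against WT stage 8, assembled-arm scaling gave Stat92E 0.099 and apt 0.036. The cause was not tested.

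Among all tested genes, WT stage 10 against WT stage 8 gave 4105 higher and 1577 lower, against 2736 and 2549 with median-of-ratios, 2672 and 2454 with quantile, and 874 lower without eggshell and yolk genes. EcRts against WT stage 10 gave 828 higher and 2826 lower, against 1634 and 1559 with median-of-ratios, 1661 and 1659 with quantile, 1841 and 1298 with assembled arms, and 458 and 5169 without eggshell and yolk genes. Among the 9 genes, WT stage 10 against WT stage 8 gave 1 higher and 6 lower (median-of-ratios), 1 and 5 (quantile), 6 higher (without eggshell and yolk genes) and 1 lower (at least 5 FPKM, where slbo is not tested). EcRts against WT stage 10 gave 1 higher and 3 lower (median-of-ratios), 1 and 2 (assembled arms), and 1 higher without the filter or the trend. EcRts against WT stage 8 gave 1 higher and 6 lower (median-of-ratios), 0 higher (quantile, limma) and 1 higher (no filter).

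With each library left out in turn, the 9 genes gave 1 to 2 higher and 2 lower in WT stage 10 against WT stage 8, 0 higher and 4 to 5 lower in EcRts against WT stage 10, and 1 to 3 higher and 3 lower in EcRts against WT stage 8. All-gene counts ranged from 3812 to 4081 higher and 1367 to 1566 lower, 568 to 813 higher and 2226 to 2888 lower, and 2871 to 3323 higher and 1591 to 1806 lower in those comparisons. Whether same-numbered samples pair was not settled. Their deviations correlated at -0.04 to 0.23, with 2 of 9 pairs over 0.1. For differently numbered samples the range was -0.23 to 0.17, with 2 of 18 pairs over 0.1. The best match in another group carried the same number in 5 of 18 cases. A fit with a replicate block gave 4029 higher and 1521 lower, 748 and 2588, and 3190 and 1740; among the 9 genes only the apt call in EcRts against WT stage 10 was lost (adjusted p = 0.0928). The upper deposited limit lay 2.56% to 31.6% above the value for the 9 genes, and up to 15.0% without slbo.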

Other observations

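A pair of humoral stress genes that JAK-STAT signalling can activate, TotA and TotM, were high in replicate 1 of both stage 10 groups. TotA had 5.55, 0.229 and 0.364 FPKM in EcRts stage 10, 2.03, 0.369 and 0.117 FPKM in WT stage 10, and 0.104, 0.198 and 0.115 FPKM in WT stage 8. TotM had 1.92, 0.283 and 0.225 FPKM in EcRts stage 10, 1.26, 0.456 and 0 FPKM in WT stage 10, and 0.227, 0.367 and 0.143 FPKM in WT stage 8. Neither passed the filter, and both were singled out after their values were seen.

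The GATA factor gene srp had 6.61, 10.0 and 7.18 FPKM in EcRts stage 10, 22.1, 17.2 and 23.3 FPKM in WT stage 10, and 6.82, 6.57 and 6.24 FPKM in WT stage 8. It rose by 1.52 in WT stage 10 against WT stage 8 (limma adjusted p = 6.13e-05) and fell by 1.30 in EcRts against WT stage 10 (adjusted p = 0.000590), under all 20 alternatives each. It too was chosen after its values were seen, as was vn. The EGF receptor ligand gene vn stayed below the filter with 0.132, 0.178 and 0.282 FPKM in EcRts stage 10, 0.520, 0.410 and 0.464 FPKM in WT stage 10, and 0.0969, 0.130 and 0.0984 FPKM in WT stage 8, and in these libraries the WT stage 10 group did not overlap the others.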
